A study of Mus musculus with 67 samples.

Results

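The transcripts described here are 100 genes of the mouse catalogue that carry only a running number (Gm followed by digits) or a RIKEN clone name (ending in Rik) and whose control level was highest at the 4-cell or 8-cell stage. The deposited table held 26414 genes, of which 8998 bore such a symbol. Gm42418, which overlaps a ribosomal RNA repeat, was left out. Among the rest, 884 had a mean of at least 10 in control 4-cell or control 8-cell libraries. They were ranked by the log2 ratio of the higher of these means to the highest of the control 2-cell, morula and blastocyst means, with 1 added to each, and the first 100 were kept. Of these, 53 were highest in control 4-cell libraries and 47 in control 8-cell libraries. A value is a read number divided by a size factor of its library. It is not divided by transcript length, so levels are compared between groups for 1 gene and not between genes.

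The libraries came from C57BL/6 mouse embryos prepared by Smart-seq2, a full-length method that copies polyadenylated RNA and does not keep the strand. The study asked how strong light at the 2-cell stage changes the transcriptome up to the blastocyst. Light embryos were exposed at the 2-cell stage to 5000 lx, for 6 h, then cultured in the dark, whereas control embryos were kept from that exposure. All embryos were made by in vitro fertilization, with oocytes of dams of 6 weeks and sperm of sires of 10 weeks. There were 67 libraries: 7 control and 6 light 2-cell, 6 control and 8 light 4-cell, 4 control and 8 light 8-cell, 13 control and 6 light morula, and 3 control and 6 light blastocyst libraries. The labels number embryos, while the study's methods describe single cells taken from dissociated embryos. Nothing in the labels says that libraries of a group came from separate embryos or litters, so p-values measure the spread between libraries. A smaller share of cells of a type and less RNA per cell cannot be told apart in such values.

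In the mouse embryo the zygotic genome is switched on in a minor wave in the zygote and a major wave at the 2-cell stage, while RNA stored in the oocyte is degraded. Genes of the major wave include short-lived 2-cell transcripts such as Zscan4, Zfp352 and the Tdpoz family, many of them driven from or near MERVL repeats, and later genes follow in a mid-preimplantation wave around the 4-cell and 8-cell stages. Catalogue entries without a name comprise long noncoding RNAs, antisense transcripts, processed pseudogenes, which are reinserted copies of the mRNA of another gene, and protein-coding copies in young gene families.

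Total reads per library ran from 836011 to 8551674, with a median of 4632053, but Gm42418 and the ribosomal entry CT010467.1 took 54.0 to 89.3% of them. Between 318177 and 2867034 reads remained, and the 100 transcripts held 0.072 to 0.835% of those. The depth behind a single member was therefore small, and intervals from counting alone would cover counting error only. On the deposited scale the median log2 ratio of 3 genes, Gm42418, CT010467.1 and Slc6a6, was nearly level over libraries (SD 0.07). The summed value outside the ribosomal entries was not level, with a median of 993686 at light 4-cell and 395188 at light blastocyst. A fall of a member after the 4-cell stage is thus in part that of the whole sum. No pair of libraries of a group agreed within sampling noise, the lowest chi-square per degree of freedom being 7.39. The summed level of a list of 10 2-cell markers, among them Zfp352, Tdpoz3, Tdpoz4 and 3 Zscan4 copies, had a median of 674 in control 2-cell and 32.1 in control 4-cell libraries. In control 8-cell libraries it was higher again, from 110 to 544 with a median of 256, against 2.85 to 146 with a median of 46.3 in light 8-cell libraries. Control 4-cell libraries had 14.7 to 94.6. This is given because 25 of the 47 8-cell transcripts shared that course.

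The 100 transcripts were a mixed group. In the GENCODE M21 annotation 28 were protein-coding, 21 antisense, 17 lincRNA, 13 of the class to be experimentally tested, 17 pseudogenes of any kind and 1 a miRNA entry, Gm25353. Pseudogenes made up 30.1% of the other 781 annotated Gm or Rik genes at or above the minimum level. Single-exon genes numbered 43, against 41.7% of the others, and 46 overlapped an exon of a gene on the opposite strand, against 45.3%. A start within 1000 bases of a start on the opposite strand was seen for 19, against 22%, and the longest transcript had a median length of 1669 bases, against 1378. The members thus had fewer pseudogenes, larger shares of lincRNA, protein-coding genes and the class to be tested, and somewhat longer transcripts. In the shares with a single exon, an opposite-strand overlap or a nearby start they were close to the other unnamed genes. A few have since received names in RefSeq: 4930432K21Rik is Brme1, a factor of meiotic recombination, 4430402I18Rik is Spata6l, 2210016L21Rik is Custos and 1810019D21Rik is the antisense transcript of Esrp2, an epithelial splicing regulator.

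In control libraries the rank ratio, on the log2 scale, ran from 1.19 to 3.58, which is 2.28 to 12.0-fold, with a median of 1.59. The members were chosen by these control means, which are a description only. At the edge of the list, 1110002L01Rik with a ratio of 1.196 and 4930500M09Rik with 1.187 were just inside, and I0C0044D17Rik with 1.183 and 1110051M20Rik with 1.182 just outside. Most members were low: the mean at the peak stage had a median of 23.6 and a range of 10.0 to 672, and 44 members were under 20. In 26 members more than 50% of the sum at the peak stage came from 1 library. The first by rank, M5C1000I18Rik, read 8.33, 50.6, 1.16 and 7.51 in the 4 control 8-cell libraries and 0 in all 6 control 4-cell libraries. Library 2 thus supplied most of its level. Gm45828 and 4930517G19Rik, both 4-cell transcripts of the first 10, had control 4-cell medians of 2.46 and 18.5 with highest values of 62.6 and 44.6. Gm17895, a processed pseudogene, was more even, with 50.9, 35.7, 36 and 33.8 in control 8-cell libraries against at most 29.6 in any control 4-cell library.

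Gm12845, protein-coding in GENCODE and a pseudogene in RefSeq, at chr4:117724412-117726872 (GRCm38, plus strand), was also among the first 10. It read 387 at the lowest, 692 at the median and 701 at the highest in control 4-cell libraries, 338, 382, 147 and 161 in control 8-cell libraries, and at most 201 in any control 2-cell and 131 in any control morula library. The list also depended on the scale: when the same rule was applied to reads scaled to the library total outside the 2 ribosomal entries, 57 of the 100 stayed in, and with median-ratio scaling 58 did.

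**Figure D1:**
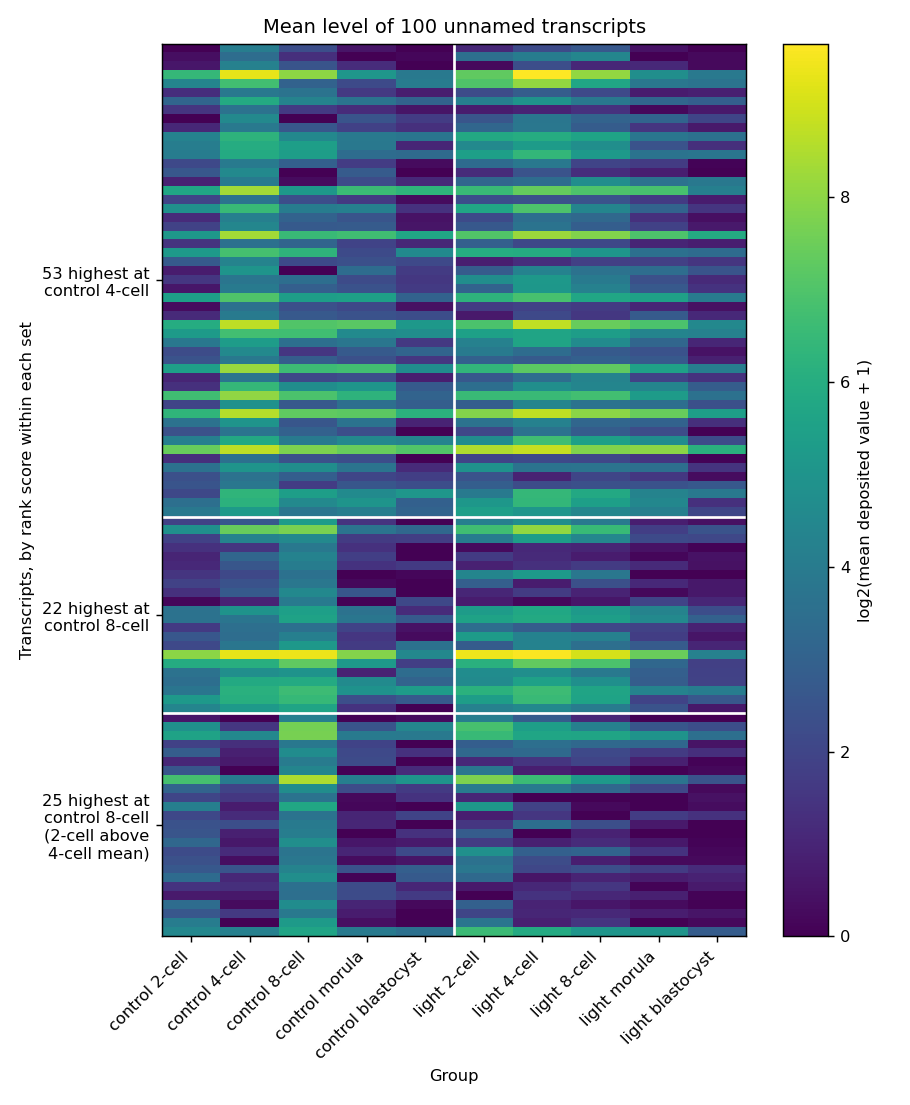
Mean deposited value of each of the 100 transcripts (rows, by rank within 3 sets) in the 10 groups (columns, control left of the white line and light right of it), coloured by log2(mean + 1). The 53 transcripts highest in control 4-cell libraries stay bright at light 4-cell, whereas the 25 at the bottom are bright at control 8-cell and control 2-cell, dark at control 4-cell and dark at light 8-cell.

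The light libraries took no part in choosing the members, so the same stage course was asked of them. Of the 100, 55 had their highest light mean at 4-cell, 29 at 2-cell, 13 at 8-cell, 3 at morula and 0 at blastocyst. Among all 8918 genes of any name with a mean of at least 10 in control 4-cell or control 8-cell libraries, 51.7% had their highest light mean at 2-cell, 27.7% at 4-cell, 3.76% at 8-cell, 11.1% at morula and 5.66% at blastocyst. The control peak stage was also the light peak stage for 35 of the 53 4-cell transcripts and for 3 of the 47 8-cell transcripts.

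All 100 members passed the filter in the light libraries, a value above 1 in at least 3 of them. The test was limma on log2(value + 1), with Benjamini-Hochberg adjustment over 19503 genes, and calls needed both an adjusted p below 0.05 and a change of 2-fold or more. Fold changes on that scale understate the change of low genes. Of the 53 4-cell transcripts, 14 were higher in light 4-cell than in light 2-cell libraries, beside 7.28% of all genes tested, and 1 was lower, beside 28.2%. Against light morulae 29 were higher, beside 17.2%, and against light blastocysts 43 were higher, beside 29.3%. None of the 53 was lower at 4-cell than at either later stage (limma; 0 also at an unadjusted p under 0.05), beside 4.4% and 7.1% of all genes. By edgeR 0 were lower too, and by DESeq2 2 were lower than at blastocyst. Higher than at each of the 3 stages were 10 of the 53, beside 2.11%. From 4-cell to 8-cell 6 of the 53 fell, beside 6.4% of all genes, a share near the background, and 3 to 7 did with 1 library left out. The median log2 difference of the 53 was 0.90 against 2-cell, where all genes had −0.44, 1.5 against morula, where they had 0.27, and 2.65 against blastocyst, where they had 0.51.

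Gm12845 also stood out in light libraries. It read 333, 709 and 1473 (lowest, median and highest of 8) at 4-cell, 8.34, 139 and 404 at 2-cell, 8.4, 12.9 and 66.1 at morula and 6.62, 15.9 and 19.4 at blastocyst. The 4-cell values did not overlap those of the morulae or blastocysts, and overlapped the 2-cell values at their lower end. The differences of 4-cell from these 3 stages were 3.00 ± 0.515 (log2, SE; limma adjusted p = 7.42e-06), 5.21 ± 0.515 (8.05e-11) and 5.68 ± 0.515 (8.16e-13).

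4931409K22Rik, a protein-coding gene of 18 exons, had 77.6, 113 and 267 at light 4-cell and 0, 52.1 and 135 at light 2-cell. Its light medians at 8-cell and morula were 16.9 and 0.903. It was higher at 4-cell than at 2-cell by 2.76 ± 0.828 (limma adjusted p = 0.00658), and from 4-cell to 8-cell it fell by 2.99 ± 0.767 (adjusted p = 0.0105). The first of these calls was lost without light 2-cell library 15 or 16.

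Gm4675, a lincRNA whose exons overlap those of Sox21, a transcription factor gene, on the other strand, had 13.7, 31.5 and 58.2 at light 4-cell and 0, 7.31 and 16.9 at light 2-cell. It was higher at 4-cell than at 2-cell by 2.42 ± 0.622 (limma adjusted p = 0.00156). Sox21 itself had means of 3.37 at light 2-cell and 109 at light 4-cell, and reads over the shared exons cannot be assigned to one strand.

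1810019D21Rik, antisense to Esrp2, had 51.6, 62.9 and 221 at light 4-cell and 3.89, 13.4 and 30.1 at light 2-cell, with no overlap. Its 4-cell level exceeded that at 2-cell by 2.56 ± 0.436 (limma adjusted p = 6.24e-06) and that at morula by 2.05 ± 0.44 (0.000311). Esrp2 itself had means of 23.6 at light 2-cell and 211 at light 4-cell, and reads of the 2 strands cannot be told apart in these libraries.

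The members with the highest deposited means differed in how sharply they peaked. Gm38100, a protein-coding entry on chromosome 1, was higher at light 4-cell (178, 365 and 748) than at 2-cell (83.8, 107 and 183) by 1.71 ± 0.432 (limma adjusted p = 0.00135). Gm26648, antisense to Nub1, and Gm17275, a lincRNA opposite the histone gene H3f3a, were not called there: Gm26648 had medians of 436 at light 4-cell and 227 at light 2-cell, and Gm17275 medians of 440 and 385. Gm5612, an 8-cell transcript and a processed pseudogene of Map1lc3b, which encodes the autophagosome protein LC3B, had medians of 634 and 669. All 4 were higher at light 4-cell than at blastocyst, by 4.32, 3.45, 2.77 and 5.24 in the order named. They had fallen by the blastocyst stage whether or not they peaked at the 4-cell stage.

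**Figure D2:**
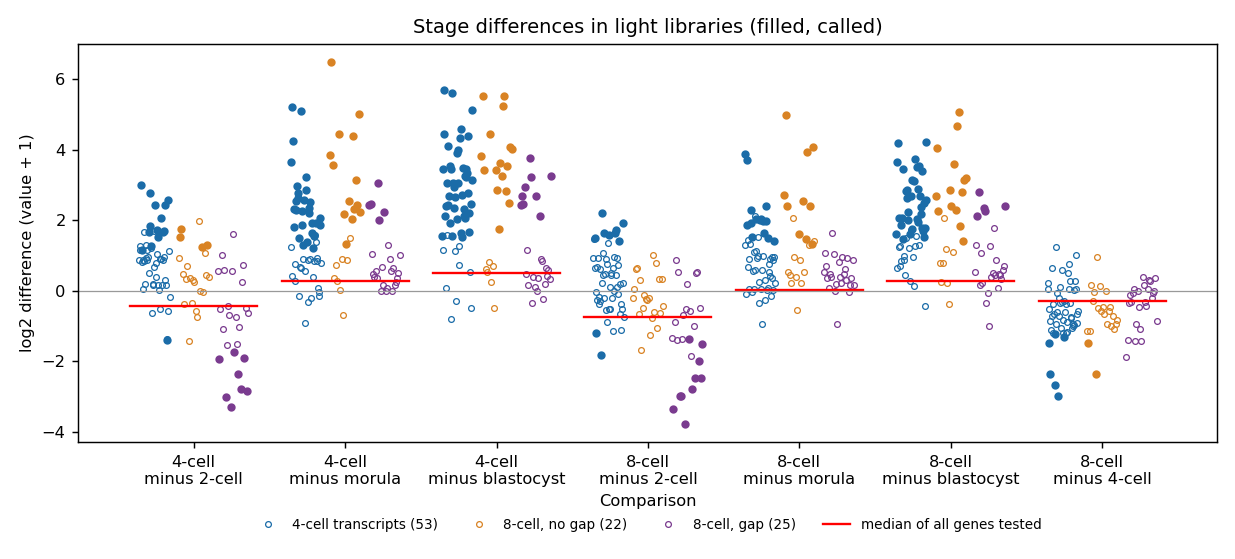
Log2 differences between stages in the light libraries for each of the 100 transcripts (points, coloured by set; filled where called), with the median of all genes tested as a red line. The 53 4-cell transcripts lie above the red line in most of the comparisons of 4-cell with morula and blastocyst. No 8-cell transcript is called higher at 8-cell than at 4-cell, beside 0.426% of all genes tested, so this count is near the background.

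Of the 47 transcripts that peaked at the 8-cell stage in control libraries, 22 had their highest light mean at 2-cell, 20 at 4-cell and 3 at 8-cell. Among all 8918 genes with a mean of at least 10 in control 4-cell or control 8-cell libraries these shares were 51.7%, 27.7% and 3.76%. None was higher at light 8-cell than at light 4-cell, beside 0.426% of all genes tested (limma; 0 also at an unadjusted p under 0.05), a count near the background. Lower there were 2, beside 6.4%. By edgeR and by DESeq2 0 were higher as well, with 2 and 1 at an unadjusted p under 0.05. Against light 2-cell libraries 0 were higher, beside 5.11% (limma; 0 unadjusted, and 3 called by edgeR and 1 by DESeq2), and 10 were lower, beside 37.7%. Against light morulae 10 were higher, beside 5.58%, and against light blastocysts 19 were, beside 18.7%. None was lower than at morula or blastocyst (limma; 0 also at an unadjusted p under 0.05, while edgeR called 1 and 2 and DESeq2 0 and 1), beside 3.69% and 7.69%, and 0 were higher than at each of the 3 stages, beside 0.461%. The median difference of the 47 was −0.60 against 2-cell (all genes −0.74), 0.61 against morula (0.01), 1.18 against blastocyst (0.26) and −0.45 against 4-cell (−0.29).

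Within the 47, 2 courses were seen in control libraries. In 25, called gap transcripts here, the control mean was higher at 2-cell than at 4-cell and rose again at 8-cell. In the other 22 the control 4-cell mean was at or above the 2-cell mean. This division was made after the values were seen and is a description. The 10 transcripts lower at light 8-cell than at light 2-cell were all gap transcripts. They were 10 of 25, beside 37.7% of all genes tested, a share near the background. The 10 that were higher at light 8-cell than in morulae were all among the other 22, beside 5.58% of all genes. Of the other 22, 14 were higher at light 4-cell than at morula, beside 17.2%, and 4 higher than at 2-cell, beside 7.28%.

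4930432K21Rik (Brme1) was among the other 22. It had 100, 369, 138 and 234 in the 4 control 8-cell libraries, and 48.5, 170 and 315 in control 4-cell libraries. In light libraries it had 15.5, 100 and 192 at 2-cell, 105, 248 and 450 at 4-cell, 51.8, 85.6 and 138 at 8-cell and at most 7.75 at morula. Its light values were highest at 4-cell, and it was lower at 8-cell than at 4-cell by 1.49 ± 0.429 (limma adjusted p = 0.0231) and higher at 8-cell than at morula by 4.99 ± 0.463 (7.18e-11).

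1700126G02Rik, antisense to the ethanolamine kinase gene Etnk1, had 3.7, 25.6, 27.9 and 33 in control 8-cell libraries, but 30, 41 and 53.7 at light 4-cell and 5.85, 21.5 and 33.9 at light 8-cell. It was higher at light 8-cell than in light morulae by 2.41 ± 0.531 (limma adjusted p = 0.00141). Etnk1, whose reads over shared exons cannot be told apart from it, had means of 395, 194 and 38.6 at light 4-cell, 8-cell and morula.

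The division fixed that the gap transcripts went down at 4-cell and up again at 8-cell in control libraries, and it fixed nothing for the light libraries. Over the 25, the sum per library was 123, 328 and 560 (lowest, median and highest) in control 2-cell, 20.5, 61.2 and 216 in control 4-cell and 1132, 1740, 1235 and 790 in the 4 control 8-cell libraries. The control 8-cell values lay above those of the other control stages named. In light libraries the sums were 400, 707 and 974 at 2-cell, 144, 272 and 780 at 4-cell and 59.0, 154 and 348 at 8-cell. Between 23 and 25 of the 25 were above 0 in each control 8-cell library and between 9 and 19 in each light 8-cell library. Members were chosen for a high control level at the peak stage, which favours high control 8-cell sums and counts. No light effect is read from these differences.

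The summed 2-cell marker list followed the same course over control 2-cell, 4-cell and 8-cell libraries and was lower in light at the 8-cell stage. Zfp352, a zinc-finger gene active at the 2-cell stage, read 28.7, 109, 109 and 17.1 in the 4 control 8-cell libraries and 0 to 2.32 in the 8 light 8-cell libraries. Its members were uneven: Tdpoz4 had means of 116.8 in control and 41.9 in light 8-cell libraries and so gave much of the control sum, while Zscan4d, a defining marker of the 2-cell stage, had 0.27 and 1.13 and Zscan4f 0.13 and 0.097. The sum of 10 oocyte genes was also lower in light 8-cell libraries (43.2, 75.2 and 133) than in control ones (109, 147 and 217). Its control medians were 3835 at 2-cell, 209 at 4-cell and 147 at 8-cell, and its light 2-cell median was 1223. Bmp15 gave much of the control 2-cell sum, with a mean of 2506. Bmp15 and Zp2 had higher means at control 8-cell than at control 4-cell, and the other oocyte genes of the list had lower ones. The part of the 2-cell markers and of the oocyte genes in the results for gap transcripts was not tested.

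**Figure D3:**
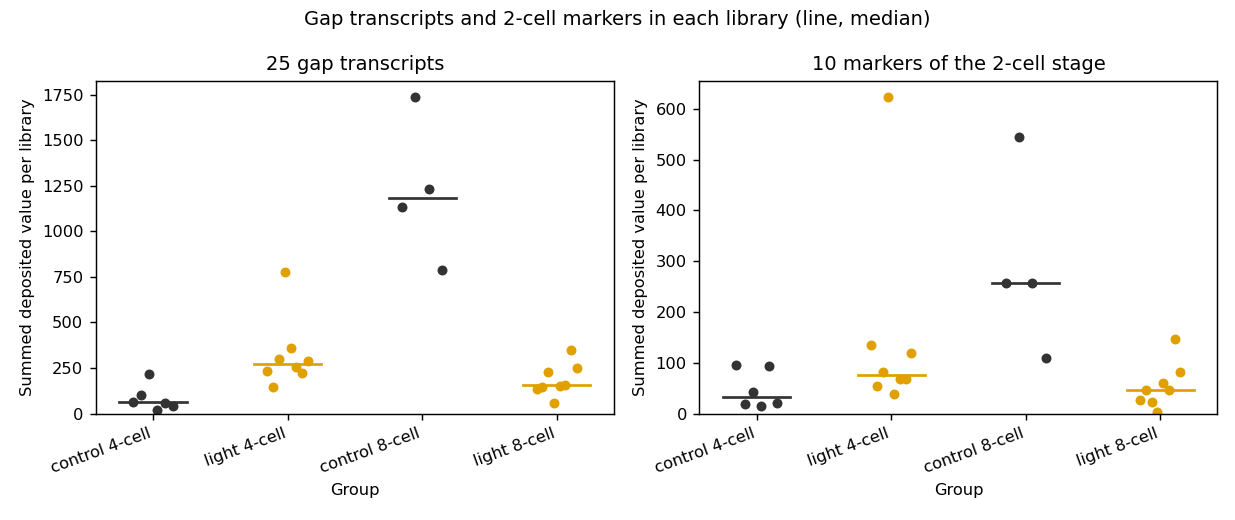
Summed deposited value per library (points; line, median) of the 25 gap transcripts and of the 2-cell marker list in control and light 4-cell and 8-cell libraries. The gap sum is highest in the 4 control 8-cell libraries, between 790 and 1740, and the marker sum is 110 to 544 there, while light 4-cell library 1 is high in both, at 780 and 623. The gap transcripts were chosen for a high control 8-cell level.

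Some gap transcripts belong to families of near-identical copies. Gm9124 and Gm9131 are unprocessed pseudogenes at chr3:94009931-94011022 and chr3:94119979-94121067 (GRCm38, both on the plus strand), and their transcripts were 98.1% identical to each other and 81.2% to Tdpoz3, a 2-cell gene with a TRAF and a POZ domain. Their first 150 bases are shown because reads of such copies are hard to assign. Capitals mark the 3 positions that differ.
Gm9124: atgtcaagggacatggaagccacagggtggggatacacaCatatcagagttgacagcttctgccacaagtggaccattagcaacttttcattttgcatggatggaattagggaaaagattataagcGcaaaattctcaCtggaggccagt
Gm9131: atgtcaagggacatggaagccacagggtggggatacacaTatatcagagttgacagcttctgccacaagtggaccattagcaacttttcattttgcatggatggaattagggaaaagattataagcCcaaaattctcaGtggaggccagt

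Gm9124 had 25.9, 26.1, 27.9 and 0 in control 8-cell libraries and 0 in every control 4-cell library. In light libraries it had 3.97, 8.29 and 38.9 at 2-cell and at most 2.99 at 8-cell, a difference of −2.98 ± 0.453 (limma adjusted p = 4.49e-07). Gm9131 had 19.4, 12.8, 4.64 and 12.1 at control 8-cell and 0, 1.92 and 37.2 at light 8-cell, and was not called. The pair therefore differed in the called result, and both values are uncertain, as reads could be split between them and with Gm5286, 99.8% identical to Gm9124.

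Gm47096 and Gm2027 overlap on opposite strands at chr12:44220387-44269118 and chr12:44221745-44223373, and without strand their reads cannot be told apart. Gm47096 is a lincRNA and Gm2027 a processed pseudogene. Gm47096 had 70.3, 423, 180 and 112 in control 8-cell and 0, 1.71 and 3.93 in control 4-cell libraries. In light libraries it had 62.9, 96.5 and 238 at 2-cell, 8.81, 21.8 and 163 at 4-cell and 0.481, 14.2 and 47.8 at 8-cell. Gm2027 followed the same course, with 154, 699, 360 and 205 at control 8-cell and 1.93, 32.6 and 70.9 at light 8-cell. Their light 8-cell levels were lower than at light 2-cell by 3.35 ± 0.648 (log2, SE; limma adjusted p = 3.23e-05) and 2.98 ± 0.667 (0.000252).

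Gm6909, an unprocessed pseudogene 96.1% identical to Aurkc, the gene of the meiotic kinase Aurora C, had 33.3, 40.5, 104 and 34.6 in control 8-cell libraries and at most 0.963 in light 8-cell libraries. At the 2-cell stage it had 1.98, 13.5 and 33.8 in control and 0.826, 15.7 and 105 in light libraries. The light 8-cell level was 3.78 ± 0.616 lower than the light 2-cell level (limma adjusted p = 1.77e-06). Aurkc had control means of 89.8 at 2-cell and 2.3 at 8-cell, so the parent gene did not share the control 8-cell level of its copy.

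Gm36908, a lincRNA of 4 exons at chr10:25615632-25621563 (minus strand), had 31.5, 45.8, 37.1 and 35.9 in the control 8-cell libraries, the most even of the named gap transcripts, and 0 in all 6 control 4-cell libraries. In light libraries it had 2.8, 9.54 and 26.7 at 2-cell and 0, 0 and 7.74 at 8-cell, a difference of −2.48 ± 0.525 (limma adjusted p = 0.000117). Its promoter is shown because it was the only one of 30 that held TATAAA, the letters of a TATA box, at any position and on either strand. The RefSeq window of GRCm38.p6, chr10:25621514-25621813 on the minus strand, runs from 250 bases before to 50 after the start. Capitals mark GGAATG, the TEAD core, and the overlapping TATAAA and AAGGTCA, the latter an element bound by NR5A2 and related nuclear receptors.
Gm36908: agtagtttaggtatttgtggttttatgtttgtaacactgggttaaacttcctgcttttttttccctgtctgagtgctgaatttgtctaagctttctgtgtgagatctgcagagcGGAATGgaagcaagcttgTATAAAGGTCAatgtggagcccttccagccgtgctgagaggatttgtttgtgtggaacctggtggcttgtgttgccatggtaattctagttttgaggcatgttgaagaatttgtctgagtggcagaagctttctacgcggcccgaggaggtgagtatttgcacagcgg

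Promoter windows were found for 30 of the 100. TATAAA on either strand was in 1 (3.33%), against 15.7% of all 27025 genes with a window, and AAGGTCA was in 3 (10%), against 5.38%. CCAAT was in 9 (30%, all genes 41.06%), CCACCC, the core bound by Krüppel-like factors, in 11 (36.7%, 34.05%), GGAATG in 5 (16.7%, 16.6%) and GGATTA, the core of OBOX and OTX homeodomain proteins, in 2 (6.67%, 8.14%). These are matches of letters in the window and no more.

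The window of M5C1000I18Rik, the first by rank, is shown as a contrast, since it held none of the 6 motifs and has no capitals. M5C1000I18Rik is a single-exon lincRNA that overlaps the exons of C2cd4b on the other strand. The window lies at chr9:67760181-67760480, minus strand.
M5C1000I18Rik: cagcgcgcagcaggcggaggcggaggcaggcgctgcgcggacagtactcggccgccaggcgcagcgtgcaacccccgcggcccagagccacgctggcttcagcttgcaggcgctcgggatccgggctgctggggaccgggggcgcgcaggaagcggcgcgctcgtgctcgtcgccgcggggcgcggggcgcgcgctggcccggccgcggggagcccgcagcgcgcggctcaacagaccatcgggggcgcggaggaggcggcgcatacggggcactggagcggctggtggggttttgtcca

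C2cd4b had the same course as M5C1000I18Rik: a mean of 33.6 at control 8-cell, 0 at control 4-cell and 3.29 at light 8-cell. Similar pairs were common. For 58 members, genes whose exons overlap theirs or whose body holds them were in the table, in 70 pairs of member and partner, and in 44 pairs the partner had its highest control mean at the stage of the member. Of the 61 pairs whose partner had a control mean of at least 10, 45 (73.8%) had that partner highest at 4-cell or 8-cell, against 30.3% of all 12474 genes at that level. The shares are not of like things. The pairs hold Gm47096 and Gm2027 as partners of each other, both chosen by the rule. Some partners, such as Slc6a6 and C130026I21Rik, are counted more than once, and shared reads can give a member and its partner the same course. Gm45828 and 4930517G19Rik both lie within Slc6a6, the taurine transporter gene, which had control means of 104 at 2-cell, 389 at 4-cell and 156 at 8-cell. Klhl21, an adaptor of a ubiquitin ligase opposite Gm9768, had 467 at control 8-cell and 138 at light 8-cell. Slc1a1, a glutamate transporter gene opposite 4430402I18Rik, had 489 at control 4-cell and 56.3 at control 8-cell. Without strand, reads over shared exons cannot be assigned to one or the other.

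Near-identical copies were also common. For 28 members a transcript of another gene matched at 95% or more over at least 200 bases, and 13 of the 28 were pseudogenes. The parents of several had their highest control mean at 4-cell: Map1lc3b (96.5% identical to Gm5612) had a mean of 2828 there, Eif4e (98.6% to Gm7327), which binds the mRNA cap, 1962, and Mat2a (95.6% to Gm9523), which makes S-adenosylmethionine, 2842. Gm5612 itself was highest at control 8-cell, where Map1lc3b had a mean of 1396, so these 2 did not share a peak stage. Such members are uncertain, since their reads may come from the parent. There were 10 pairs of members within 1 Mb of each other, and in all 10 both members had the same control peak stage. With 53 members highest at 4-cell and 47 at 8-cell, many pairs would share a stage in any case. Several of the pairs also overlap, lie within the same gene or are near-identical copies, so they are not independent. The closest besides Gm47096 and Gm2027 were Gm12845 and Gm12844, a processed pseudogene of Rhoa, 1.845 kb apart, with control 4-cell medians of 692 and 46.6.

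Light and control libraries were compared within each stage by the same test. The control values at every stage entered the choice of members, high ones at the peak stage and low ones at the 2-cell, morula and blastocyst stages. Lower light values at the peak stage and higher ones elsewhere are therefore favoured, and no direction of the list is read from the counts at any stage. At the 2-cell stage 16 of 95 members tested were higher in light libraries, beside 5.53% of all 18532 genes, and 0 were lower (limma; 1 at an unadjusted p under 0.05, and 0 called by edgeR or DESeq2), beside 4.96%. The 16 were 7 of the 53 4-cell transcripts, 7 of the other 22 and 2 gap transcripts. Values did not overlap for 5, beside 1.66%. The count ran from 9 to 19 when 1 library was left out: it was 9 without control library 9 or light library 12 or 14, and 10 without light library 10. Over the 53, the control 2-cell sums fell into 497, 505 and 693 in 3 libraries and 1246 to 1343 in the other 4, and the light sums ran from 1603 to 2877.

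2900097C17Rik, a lincRNA, had 0.69, 15.6 and 24.8 in control and 38.9, 64.9 and 107 in light 2-cell libraries. The groups did not overlap, and the difference was 2.88 ± 0.652 (limma adjusted p = 0.00396). 4930500M09Rik had 11.5, 17.4 and 47 in control and 60.3, 82.9 and 170 in light 2-cell libraries, again without overlap, and differed by 2.17 ± 0.474 (adjusted p = 0.00286). Gm5612 had 59.3, 343 and 422 in control and 419, 669 and 1024 in light, a difference of 1.80 ± 0.405 (adjusted p = 0.00363), with overlap of the highest control and the lowest light library.

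At the 4-cell stage 4 of 92 members tested were higher in light libraries, beside 1.12% of 15010 genes, and 1 was lower, beside 0.333%. Without control 4-cell library 3, 10 were higher and 4 lower, without control library 5, 1 and 0, and without light library 9, 2 and 0. Gm47096 was the furthest up, by 3.65 ± 0.768 (limma adjusted p = 0.0178), with no overlap: 0 to 3.93 in control and 8.81 to 163 in light. In 2 members every light library was above every control library, beside 0.4% of all genes, and in 0 every one was below, beside 0.16%. 1110065P20Rik had 1.37, 8.94 and 33.4 in control and 41.1, 51 and 110 in light, and differed by 2.59 ± 0.572 (adjusted p = 0.0223), a call lost without control library 5 or light library 11. 4930404I05Rik was the 1 lower member, with 4.56, 20.5 and 30.7 in control and 0, 0.176 and 5.16 in light, by −3.31 ± 0.739 (adjusted p = 0.0237). Its groups overlapped, and the call was lost without control library 5 or light library 7, 9 or 13.

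**Figure D4:**
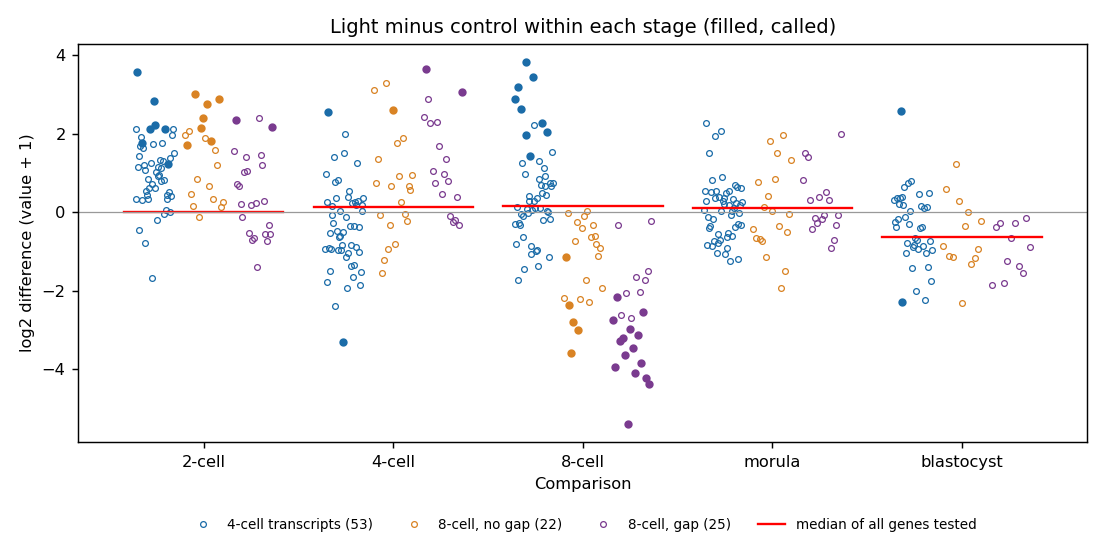
Log2 difference between light and control libraries at each of the 5 stages for each transcript tested (points, coloured by set; filled where called), with the median of all genes tested as a red line. At the 8-cell stage the gap transcripts lie far below the red line, with a median of −2.86, while called 4-cell transcripts lie above it. Both follow the choice of members by control values.

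At the 8-cell stage, of 99 members tested, 20 were lower in light libraries, beside 3.3% of 13861 genes, and 9 were higher, beside 5.91%. The 20 were 15 gap transcripts and 5 of the other 22. The 9 were all 4-cell transcripts. Both follow the choice, as the 47 were taken for a high control 8-cell level and the 53 had a control 8-cell level below that at 4-cell. Without control library 3 the lower count was 13. In 13 members every light library was below every control library, beside 2.29% of all genes, and in 6 every light library was above, beside 3.31%. The median difference was −2.86 for gap transcripts, −1.02 for the other 22 and 0.29 for the 53, where all genes had 0.16.

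Among the lower ones, Gm6909 fell furthest, by 5.39 ± 0.684 on the log2 scale (limma adjusted p = 2.93e-05), from the values given above to at most 0.963. Gm36908 differed by −4.38 ± 0.797 (adjusted p = 0.00118). Gm21149, a protein-coding copy 98.2% identical to Speer4e, a family of testis genes, had 18.5, 27.7, 36 and 16.7 in control and 0, 0 and 3.1 in light, by −4.23 ± 0.688 (adjusted p = 0.000432). Gm21358, a processed pseudogene, had 37.9, 16, 33.7 and 17.1 against 0, 0 and 9.29, by −4.10 ± 0.768 (adjusted p = 0.00146). None of these 4 overlapped between the groups. M5C1000I18Rik (a difference of −2.74 ± 0.81, adjusted p = 0.0321) and Gm43123 (−2.38 ± 0.74, adjusted p = 0.0423) were also lower, but their groups overlapped.

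Among the higher ones, Gm15446, protein-coding in GENCODE and a long noncoding RNA in RefSeq, was 97.4% identical to the zinc-finger gene Zfp932. It read 0.925, 0, 0 and 0 in control 8-cell libraries and 1.16, 13.8 and 97.8 in light, without overlap, a difference of 3.82 ± 0.839 (limma adjusted p = 0.00487). Zfp932 had means of 2.78 and 38.8 in the same groups. Gm38393, which shares its strand and exons with Snrpn, an imprinted splicing-factor gene, and with its host transcript Snhg14, was at 0 in all 4 control libraries and had 3.37, 9.02 and 21.9 in light. Set against a floor of 3 reads per control library it was at least 5.05-fold higher (adjusted p = 0.00333). Snrpn itself had means of 3.48 and 63.3, so the pair moved together. Gm5129 had 5.55, 3.73, 0 and 3.75 against 5.98, 16.6 and 46.1, without overlap, by 2.27 ± 0.719 (adjusted p = 0.0461), a call lost without 8 of the 12 libraries taken singly.

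Gm6871, a protein-coding gene on chromosome 7 whose exons overlap those of Gm17217 on the same strand, was called higher in light at 3 stages in a row. It had 0, 9.56 and 92.6 in control and 77.7, 91.4 and 310 in light 2-cell libraries, 3.41, 91.1 and 250 against 129, 252 and 488 at 4-cell, and 0.925, 10.1, 1.16 and 16.7 against 24.1, 48.9 and 110 at 8-cell. Only the 8-cell groups did not overlap. The differences were 3.56 ± 0.701 (limma adjusted p = 0.00106), 2.54 ± 0.666 (0.0483) and 3.19 ± 0.597 (0.00146). The 4-cell call of Gm6871 was lost without control 4-cell library 5, where Gm47096 was the only member still called higher. Within the light libraries Gm6871 was lower at 8-cell than at 4-cell by 2.37 ± 0.348 (adjusted p = 2.25e-05), so it fell after the 4-cell stage there too. Its window at chr7:41560780-41561079 (minus strand) is shown with GGAATG and CCAAT in capitals.
Gm6871: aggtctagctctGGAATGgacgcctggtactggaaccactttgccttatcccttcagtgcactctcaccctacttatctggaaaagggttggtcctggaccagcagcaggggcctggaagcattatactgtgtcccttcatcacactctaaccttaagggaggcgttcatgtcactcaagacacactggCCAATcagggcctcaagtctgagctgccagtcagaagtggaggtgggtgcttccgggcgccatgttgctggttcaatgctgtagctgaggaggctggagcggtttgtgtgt

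Gm5532, a lincRNA with a higher light 8-cell level by 2.88 ± 0.851 (limma adjusted p = 0.0324), had 0, 0, 3.48 and 2.5 in control and 0.951, 17.9 and 54.2 in light, with overlap. Its window (chr1:155527062-155527361, minus strand) held TAATCC, which is GGATTA on the other strand, in capitals here.
Gm5532: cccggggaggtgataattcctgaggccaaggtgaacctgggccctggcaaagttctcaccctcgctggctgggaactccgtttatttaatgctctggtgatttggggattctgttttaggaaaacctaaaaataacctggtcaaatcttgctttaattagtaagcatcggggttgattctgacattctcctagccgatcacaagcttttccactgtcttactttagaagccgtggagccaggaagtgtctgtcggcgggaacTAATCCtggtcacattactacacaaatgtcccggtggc

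**Figure D5:**
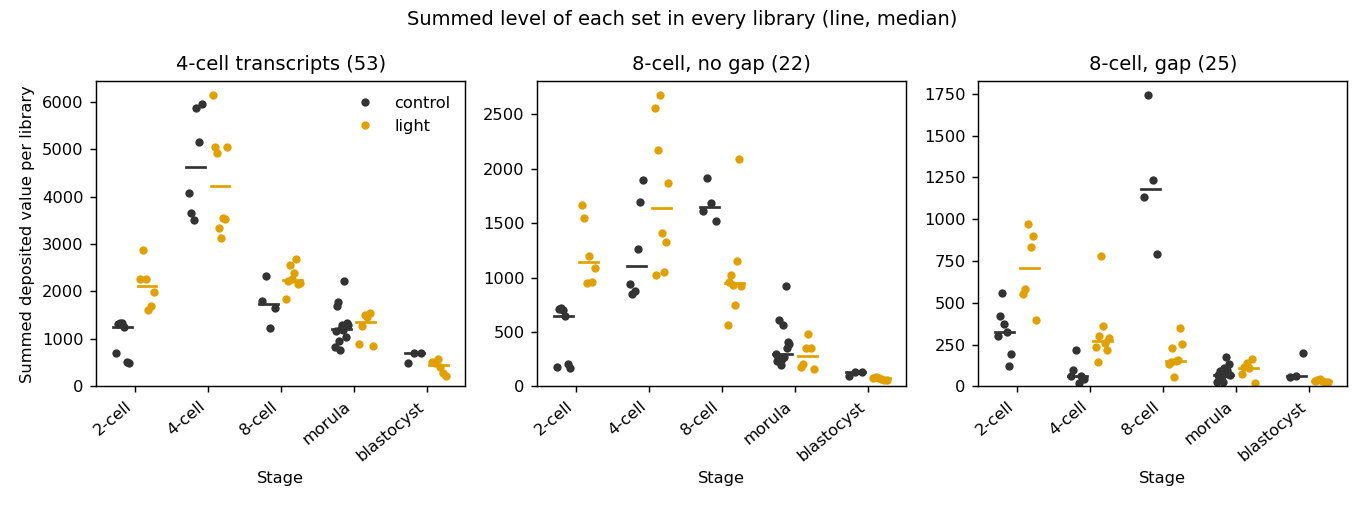
Summed deposited value per library (points; line, median) of the 53 4-cell transcripts, the other 22 8-cell transcripts and the 25 gap transcripts at the 5 stages, control and light. The 53 overlap between control (3505 to 5956) and light (3120 to 6137) at the 4-cell stage, and the gap sums at the 8-cell stage are 790 to 1740 in control and 59.0 to 348 in light. The choice of members favours high control values at the peak stage, so no light effect is read from the sums.

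After the 8-cell stage few members differed. In morulae 0 of 88 members tested were called in either direction (limma), beside 0.355% of 15217 genes higher and 0.821% lower. At an unadjusted p under 0.05, 8 were higher and 2 lower, edgeR called 0, and DESeq2 called 0 higher and 1 lower. The groups overlapped for every morula member above or below, beside 0.0723% and 0.48% of all genes without overlap. In blastocysts, with 3 control libraries, 1 of 64 members tested was higher, beside 0.353% of 12743 genes, and 1 lower, beside 4.98%. Gm15446 was the higher one, with 0.526, 1.04 and 1.93 in control and 2.94, 13.3 and 27.5 in light, by 2.57 ± 0.76 (adjusted p = 0.0499). 4430402I18Rik (Spata6l) was the lower one, with 50, 74.1 and 109 against 5.12, 16.1 and 32.1, by −2.29 ± 0.59 (adjusted p = 0.0267), while at the 8-cell stage it was higher in light by 1.95 ± 0.469 (adjusted p = 0.00954). Neither overlapped between the blastocyst groups, where 1 member was above throughout, beside 0.573% of all genes, and 4 below, beside 11.9%. The call of Gm15446 was lost without 8 of the 9 libraries taken singly and that of 4430402I18Rik without 4 of the 9.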

How the data were processed

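Smart-seq2 libraries of light and control mouse embryos at 5 stages, 67 in all, were grouped by the GEO labels. The authors' processing notes name HISAT2, HTSeq 0.9.1 and the mm9 build, while 26329 of the 26414 gene symbols (99.7%) were found in GENCODE M21, which is on GRCm38. Coordinates here are from GENCODE M21 and RefSeq and were not used to read signal. The study's methods describe RPKM, but the deposited values are a signal of another kind, whole reads divided by 1 size factor per library: at least 99.97% of the values in each library came out whole within 0.01 of a read. The deposited signal is therefore scaled between libraries by that factor and is not corrected for length. The tests had been planned for RPKM or raw counts, and the plan for normalized values was used.

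The main test was limma 3.58.1 (R 4.3.3; lmFit, eBayes with trend) on log2(value + 1), with genes above 1 in at least 3 libraries and Benjamini-Hochberg adjustment over all genes tested. A call needed an adjusted p below 0.05 and a 2-fold change, the thresholds of the study. Stage contrasts used the 34 light libraries in 1 fit, and light against control was fitted stage by stage. Both fits were tested on simulated data first. Alternatives were a pseudocount of 0.1, other filters and scalings, edgeR 4.0.16 and DESeq2 1.42.0 on the recovered reads, a replicate block, 1 fit over all libraries and leaving out each library. Identity between transcripts was from BLAST 2.17.0. Of 10 pairs of same-numbered libraries 0 had a correlation over 0.1 (−0.068 to 0.069), so the numbers were not taken to pair libraries.

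The members and marker lists were chosen with earlier results of these data known. Members named are the 10 first by rank, the 5 with the highest control mean at the peak stage, the 4 with the largest (called against all 3 other stages) and the 4 with the smallest excess of the peak stage in light libraries, up to 4 called each way between light and control at the 4-cell and 8-cell stages and up to 2 at the others, by size and first without overlap, the 2 on each side of the edge of the list, up to 4 with a RefSeq protein by peak mean, and up to 4 pairs of nearest neighbours. The division of the 47 8-cell transcripts, the comparison of light effects between stages and any other member named were chosen after seeing the data.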

Additional observations from a re-analysis of the deposited data

Results flagged for a closer look

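Outlying libraries were looked for, by Dixon's criterion, in 138 sets of 4 to 10 libraries, and 28 were found. Chance alone gives about 1 in 20. Of the 28, 5 were among 48 sets of summed levels. Light 8-cell library 8 stood above its group for the sum of the 47 8-cell transcripts (2440) and for that of the other 22 (2092), as it did for Gm5612 (1491), Gm9131 (37.2), Gm21149 (3.1) and Gm21358 (9.29). Light 4-cell library 1 stood above its group for the sum of the gap transcripts (780), for the 2-cell marker list (623) and for Gm47096 (163), so that its gap transcripts and its 2-cell markers were high together. The part of those markers was not tested. Light morula library 6 was high for the 2-cell list (99.9).

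Further single members stood apart in 1 library each. Light 4-cell library 11 was high for Gm5532 (52.8), 4931409K22Rik (267) and 1110065P20Rik (110), library 6 for 4930517G19Rik (18.5), library 9 for 1810019D21Rik (221) and library 13 for 4430402I18Rik (236). At light 8-cell, library 12 was high for M5C1000I18Rik (7.47), Gm9124 (2.99) and Gm6871 (110), and library 7 for Gm15446 (97.8). In control 8-cell libraries M5C1000I18Rik was high in library 2 (50.6), Gm17895 in library 1 (50.9), Gm6909 in library 3 (104) and Gm15446 in library 1 (0.926), whereas Gm9124 was at 0 in library 4 alone. In control 2-cell library 12 4930500M09Rik was high (47), as were Gm38393 in control 4-cell library 2 (97.0) and Gm5129 in control 4-cell library 4 (41.1).

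The light effect was also compared between the 8-cell and the 2-cell stage in 1 limma fit over all 67 libraries, a comparison chosen after seeing the data. It differed for 784 of 22588 genes (3.47%) at an adjusted p below 0.05, and for 20 of the 100 members, 12 of them gap transcripts. Against the 4-cell stage it differed for 566 genes (2.51%) and for 20 members, 17 of them gap transcripts. The control values that chose the members enter both, so no direction is read from these counts. Among named members the effect at 8-cell minus that at 2-cell was −6.28 (log2) for Gm47096 (limma adjusted p = 0.000267), −5.58 for Gm6909 (2.5e-05), −4.00 for 2900097C17Rik (0.000504), −3.83 for Gm36908 (0.000523), −3.50 for Gm21149 (0.00354) and −2.70 for Gm21358 (0.0496). Gm47096 and 2900097C17Rik were higher in light at the 2-cell stage, and Gm47096 was lower in light at the 8-cell stage, where 2900097C17Rik differed by −1.12 (adjusted p = 0.102).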

How the results depend on the processing

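Of 163 alternative counts 116 stayed within 1.5 times the reported one and 47 did not. Of 665 alternative values of the 23 named comparisons, 606 kept direction and call, 59 kept direction only and 0 reversed. With a pseudocount of 0.1, 2 of the 4-cell transcripts fell from light 4-cell to 8-cell, 10 members were higher in light 2-cell, and 0 were called either way in blastocysts. Without a filter, 2 were higher and 0 lower in light 4-cell, 12 lower in light 8-cell and 0 either way in blastocysts. With a mean above 5, 5 of the 8-cell transcripts were lower at light 8-cell than 2-cell. Median-ratio scaling gave 1 lower at light 8-cell than 4-cell, 0 lower in light blastocysts and 58 members kept. Quantile normalization gave 38 higher at the peak stage than at 2-cell, 19 higher than at each of the 3, 5 lower at light 8-cell than 2-cell, 1 lower than at 4-cell, 2 lower in light 4-cell and 0 lower in blastocysts. Scaling to the total outside Gm42418 and CT010467.1 gave 23 higher than at 2-cell, 1 lower at light 8-cell than 4-cell, 7 higher in light 4-cell, 0 lower in blastocysts and 57 members kept. By edgeR 25 were higher than in morula, 2 of the 8-cell transcripts lower than at 2-cell, 1 lower at 8-cell than 4-cell and 0 lower in blastocysts. By DESeq2 these were 4 and 1 for the stage contrasts, with 7 higher and 5 lower in light 4-cell and 1 lower in light morulae. The 1 fit over 67 libraries gave 9 higher and 2 lower at 4-cell, 5 higher at 8-cell, 3 higher and 2 lower in morulae and 0 in blastocysts. With the replicate number as a block, 4 were higher than at 2-cell, 14 than at blastocyst, 2 than at each of the 3, 3 lower at 8-cell than 4-cell, 0 higher in light 2-cell and 0 either way in light 4-cell. Groups at the 8-cell and blastocyst stages shared no numbers. The causes of these shifts were not tested.

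Leaving out 1 library gave 10 to 19 members higher than at 2-cell, 35 to 40 than at morula, 56 to 65 than at blastocyst, 8 to 13 than at each of the 3, 0 higher at 8-cell than 4-cell, 10 to 14 lower at 8-cell than 2-cell and 3 to 7 lower than at 4-cell. For light against control it gave 9 to 19 higher and 0 lower at 2-cell, 1 to 10 and 0 to 4 at 4-cell, 6 to 9 and 13 to 19 at 8-cell, 0 to 1 and 0 in morulae, and 0 to 1 each way in blastocysts. Between 80 (without control 4-cell library 2) and 99 members stayed in the list. Levels near 1 read, as for most gap transcripts in light 8-cell libraries, cannot show small differences at this depth.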

Other observations

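A family of copies on chromosome 5 supplied 3 of the 53 4-cell transcripts. Gm3286, Gm16427 and Gm3106 are protein-coding entries at chr5:95510758-95522953, chr5:93481829-93540200 and chr5:94218005-94222010 (GRCm38) whose transcripts were 99.8%, 96.4% and 95.7% identical to D5Ertd577e. They were named after their values were seen. The median in light 4-cell libraries was 37.3 for Gm3286, 100.3 for Gm16427 and 78.1 for Gm3106, beside light 2-cell medians of 19.2, 23.4 and 38.0 and light blastocyst medians of 0.625, 3.39 and 0.946. The family thus had low levels in light blastocysts in all 3 copies. From 4-cell to blastocyst Gm3286 differed by 4.59 ± 0.525, Gm16427 by 4.39 ± 0.531 and Gm3106 by 5.11 ± 0.463 (log2, SE), with limma adjusted p of 5.08e-10, 2.03e-09 and 7.66e-13. Against 2-cell, Gm3286 and Gm16427 were called higher at 4-cell (limma adjusted p = 0.0187 and 0.000264) and Gm3106 was not (0.0525). D5Ertd577e had means of 33.6 at light 2-cell and 61.3 at light 4-cell. Reads of such copies can be split between them, so the 3 are not independent.

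Control 8-cell levels below those at 4-cell were part of the choice of these 3. Between light and control, Gm16427 was called higher at the 8-cell stage by 2.04 ± 0.57 (limma adjusted p = 0.024), with medians of 42.7 in light and 13.9 in control libraries. Gm3286 differed by 1.29 ± 0.582 (0.164) and Gm3106 by 1.54 ± 0.69 (0.163), neither of which passed the threshold.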
